A study of Mus musculus with 9 samples.

Results

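The genes described here are the antioxidant, glutathione and selenoprotein genes of the mouse midbrain, a set of 43 genes that remove superoxide and peroxides, keep thioredoxin and glutathione reduced, conjugate glutathione to electrophiles, break down heme, or carry selenium. They were taken by matching the 43 gene symbols to the Ensembl identifiers of the deposited count tables, which list 47729 identifiers in each library, and all 43 were found. The rule uses symbols and no measured value, but the set was put together with earlier results of these data known. RNA was sequenced from dissected midbrain of C57/Bl6 mice (C57BL/6J in the study's methods) at postnatal day 180 in 9 libraries, 3 per genotype. Tissue of 3 mice was combined for a library, with 1 matched set of the 3 genotypes taken per litter, so the p-values below measure the spread between pools. Control mice, written Dot1l(+/+), had 2 intact alleles of Dot1l, which encodes a histone H3 lysine methyltransferase, Dot1l(fl/+) mice had 1 floxed allele, and Dot1l(fl/fl) mice had 2. Mice of all 3 genotypes, the controls included, also carried 1 copy of Pitx3-Cre and the Rosa-lox-stop-lox-Yfp reporter, and no treatment is labelled. The Cre is driven by Pitx3, which in the midbrain is active in dopamine neurons, so any deletion is limited to those cells while the dissected tissue holds every other cell type as well. The design text of the series describes sorted fluorescent cells from an embryonic stage, whereas the labels of these 9 libraries give dissected tissue at 180 days, and the libraries are described here by their own labels.

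Superoxide dismutases turn superoxide into hydrogen peroxide, which catalase, the glutathione peroxidases and the peroxiredoxins then reduce. Glutathione peroxidases and glutathione transferases spend glutathione, a tripeptide made by glutamate-cysteine ligase and glutathione synthetase and restored by glutathione reductase, while peroxiredoxins rely mostly on thioredoxin and thioredoxin reductase. Several of these enzymes hold selenocysteine, an amino acid inserted at a UGA codon that elsewhere ends translation. The transcription factor NRF2, held down by KEAP1, switches on many of these genes through the antioxidant response element, and dopamine neurons are known for a high oxidative load because dopamine itself oxidises.

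The library totals lay between 16422135 and 28403218 counts, and the 43 members together took between 0.256% and 0.291% of them. Values below are CPM, a gene's count relative to the total of its library, scaled between libraries with edgeR's TMM factors, which lay between 0.988 and 1.01. All 43 members passed the filter on low counts among 17671 genes tested, and the lowest count of any member in any library was 31, so detection was not limiting. Replicate pools of 1 genotype differed by more than counting noise, with a chi-square per degree of freedom between 4.24 and 15.4, and the highest values were those of Dot1l(fl/+) pool 2 against the other pools of its genotype. Dot1l itself was at 85.2, 80.2 and 85.1 CPM in the controls, at 84.2, 60.6 and 75.6 CPM in Dot1l(fl/+) and at 82.1, 73.9 and 82.9 CPM in Dot1l(fl/fl). Dot1l thus overlapped between genotypes, and counts over a whole gene in mixed tissue do not test whether the floxed part was lost. The labels call the tissue midbrain dopamine neurons. All 13 dopamine neuron markers, Th and Slc6a3 among them, were detected, but they summed to 772.5 to 859.4 CPM in the controls, 626.9 to 772.4 CPM in Dot1l(fl/+) and 612.0 to 641.9 CPM in Dot1l(fl/fl), while 12 oligodendrocyte markers summed to between 11019 and 12591 CPM and 12 astrocyte markers to between 4095 and 4781 CPM. Of the dopamine neuron markers, 4 of 13 were lower with 1 floxed allele and 10 of 13 with 2, each at an unadjusted p under 0.05 and against 4.09% and 1.72% of all genes, and their part in the members' values was not tested. Oligodendrocyte markers summed to between 11019 and 12065 CPM in the controls, 11138 and 12591 CPM in Dot1l(fl/+) and 11235 and 11734 CPM in Dot1l(fl/fl). Of these 12 genes, 3 were higher in Dot1l(fl/+) against controls (median 0.070) and 5 were lower in Dot1l(fl/fl) against Dot1l(fl/+) (median -0.099), at an unadjusted p under 0.05 and against 4.30% and 2.87% of all genes, and their part in the members' values was not tested either. In such bulk tissue, fewer cells of a type and less RNA per cell cannot be told apart.

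The selenocysteine codon is shown for the members that carry it, since it defines the selenoproteins and separates glutathione peroxidases that use selenium from those that use cysteine. The sequences are from GENCODE M21 transcripts on GRCm38, 5′ to 3′ in the reading frame, with the codon of the selenocysteine or of the cysteine in its place in capitals and up to 12 bases shown on each side.
Gpx1: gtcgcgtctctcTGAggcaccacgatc
Gpx3: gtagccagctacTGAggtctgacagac
Gpx4: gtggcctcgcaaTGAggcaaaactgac
Gpx7: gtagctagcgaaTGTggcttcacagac
Gpx8: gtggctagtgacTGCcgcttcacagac
Txnrd1: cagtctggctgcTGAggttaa
Txnrd2: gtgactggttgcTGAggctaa
Selenow: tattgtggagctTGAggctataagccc
Selenom: acctgtggaggaTGAcagttgaatcgc
Selenok: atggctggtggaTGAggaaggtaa
In Gpx1, Gpx3 and Gpx4 the codon is TGA, and in Gpx7 and Gpx8 the matching codon is TGT or TGC, both of which read as cysteine. The TGA of Txnrd1 (codon 612 of 613) and of Txnrd2 (codon 526 of 527) lies just before the codon that precedes the stop, and that of Selenok at codon 92 of 94. In Selenow it lies near the start, at codon 13 of 88 (chr7:15920464-15920466, minus strand, in the coding exons). Selenop, the plasma selenium carrier, has 10 such TGA codons, 9 of them from codon 259 to codon 377 of 380. In all, 9 of the 43 members have a selenocysteine codon.

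Levels differed widely between members. Exon length here is the length covered by all annotated exons of a gene, so it can exceed that of any transcript. For Sod1 it was 3970 bases, beside 641 for the transcript with the longest coding sequence. The order per kilobase thus depends on the annotation. Compared per kilobase of exon in the control pools, Selenow was highest at 208 ± 11.5 CPM per kb (SD, n = 3), followed by Selenop at 148 ± 6.92 CPM per kb, and the gap between them was larger than either spread. Gstm5 (71.5 ± 5.9), Gstm1 (65.8 ± 2.1) and Prdx5 (64.2 ± 4.64 CPM per kb) came next, and neighbours in that order differed by less than the larger of their SDs. At the low end were Hmox1 at 2.15 ± 0.148, Txnrd2 at 2.29 ± 0.27, Gpx4 at 2.44 ± 0.645 and Gpx7 at 1.8 ± 0.0666 CPM per kb, and the first 3 of these did not differ beyond their spreads. Gpx4, which reduces lipid peroxides, shares 61.7% of its 50-base windows with a processed copy, Gpx4-ps2, and its level here depends on how reads that fit both were counted, which is not given in the sources used here.

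**Figure D1:**
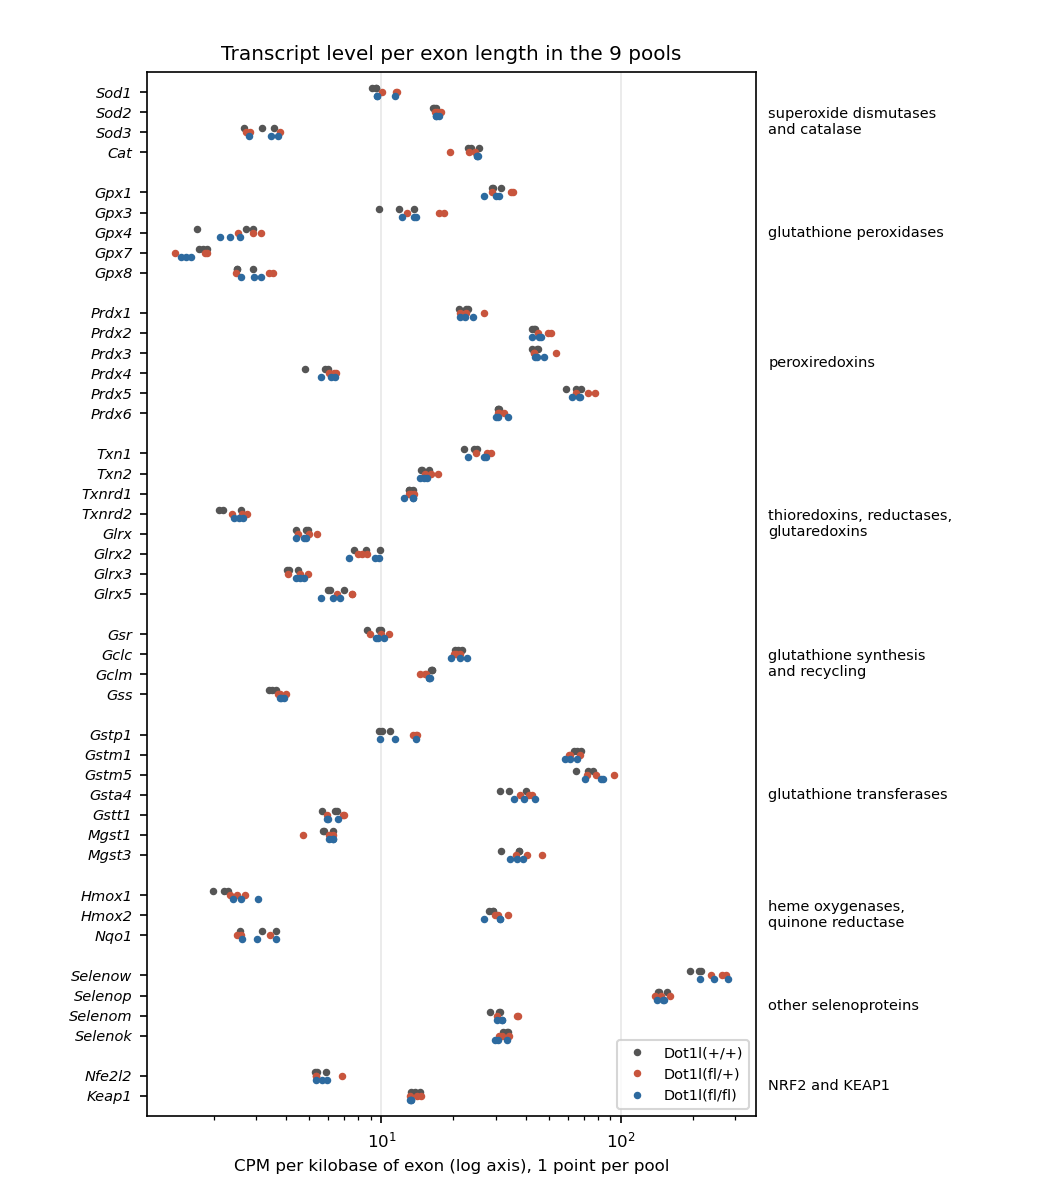
Transcript level of the 43 members in CPM per kilobase of exon (log axis), with 1 point per pool, grouped by role, in Dot1l(+/+) (grey), Dot1l(fl/+) (red) and Dot1l(fl/fl) (blue). Levels in the controls span from 1.80 CPM per kb for Gpx7 to 208 CPM per kb for Selenow, and most differences between genotypes are small beside that span.

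The first comparison asks whether loss of 1 Dot1l allele in Pitx3 cells goes with a change in these genes. No member passed an adjusted p of 0.05 in Dot1l(fl/+) against Dot1l(+/+) by edgeR's quasi-likelihood test, where 0% of the 17671 genes tested did. At an unadjusted p under 0.05, 9 members were higher and 1 was lower, against 4.30% and 4.09% of all genes tested in each direction. DESeq2 on all 9 libraries also gave 0 members at an adjusted p of 0.05 and 9 higher at an unadjusted p under 0.05, against 2.41% of the 28310 genes with a DESeq2 p, low counts included. DESeq2 on the 6 libraries of the 2 genotypes called Selenow (adjusted p = 0.0105) and Gstp1 (adjusted p = 0.0321) where 0.330% of genes were called. The log2 fold change was above 0 for 33 members and below 0 for 10, with a median of 0.11 beside -0.0034 over all genes tested. The 3 pools lay above all 3 control pools for 8 members (Sod1, Prdx2, Prdx4, Gss, Gstp1, Hmox1, Hmox2 and Selenow), against 6.84% of all genes, and below them for Gclm alone, against 6.47% of all genes. With the pool number as a replicate block, for the matched litters, 11 members were higher (4.76% of all genes), the additions being Txn1 and Gstm5, and Gclm was lower (4.58% of all genes). Fold changes below are log2 differences with their standard errors.

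The second comparison, of 2 floxed alleles against none, held fewer differences. In Dot1l(fl/fl) against Dot1l(+/+), no member passed an adjusted p of 0.05, and 0% of all genes did by edgeR. At an unadjusted p under 0.05, Selenow and Hmox1 were higher and none was lower, against 2.21% and 1.72% of all genes, and DESeq2 on all 9 libraries had Selenow alone, against 0.993% of all genes with a DESeq2 p. The median over the members was 0.049 beside 0.00090 over all genes, with 31 members above 0 and 12 below. All 3 pools lay above the controls for Sod1, Gss and Hmox1 (5.03% of all genes) and below them for Gpx7, Gclm and Keap1 (5.25% of all genes). With the replicate block, Selenow, Gsta4 and Gstm5 were higher at that threshold (2.46% of all genes) and Hmox1 was not, 0 members were lower (1.96% of all genes), and 0 members but 0.0170% of all genes passed an adjusted p of 0.05. Both comparisons use the same 3 control pools, so their values are not independent of each other.

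In the third comparison, Dot1l(fl/fl) against Dot1l(fl/+), 0 members passed an adjusted p of 0.05 by edgeR or DESeq2, as did 0% of all genes by edgeR. Cat was higher and Glrx5 lower at an unadjusted p under 0.05, against 3.60% and 2.87% of all genes in each direction, and DESeq2 on all 9 libraries had 1 higher and 3 lower, against 1.76% and 1.56% of all genes with a DESeq2 p. The log2 fold change was below 0 for 32 of the 43 members, with a median of -0.052 beside 0.0015 over all genes. With the replicate block 0 members were higher (3.94% of all genes) and Glrx5 and Gstp1 were lower (3.19% of all genes), and again 0 members but 0.0170% of all genes passed an adjusted p of 0.05. Lower members numbered 7 without the filter on low counts (3.23% of all genes) and 7 without Dot1l(fl/+) pool 1 (4.32% of all genes). The 2 genotypes with floxed alleles were therefore not told apart by these genes at the adjusted threshold.

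**Figure D2:**
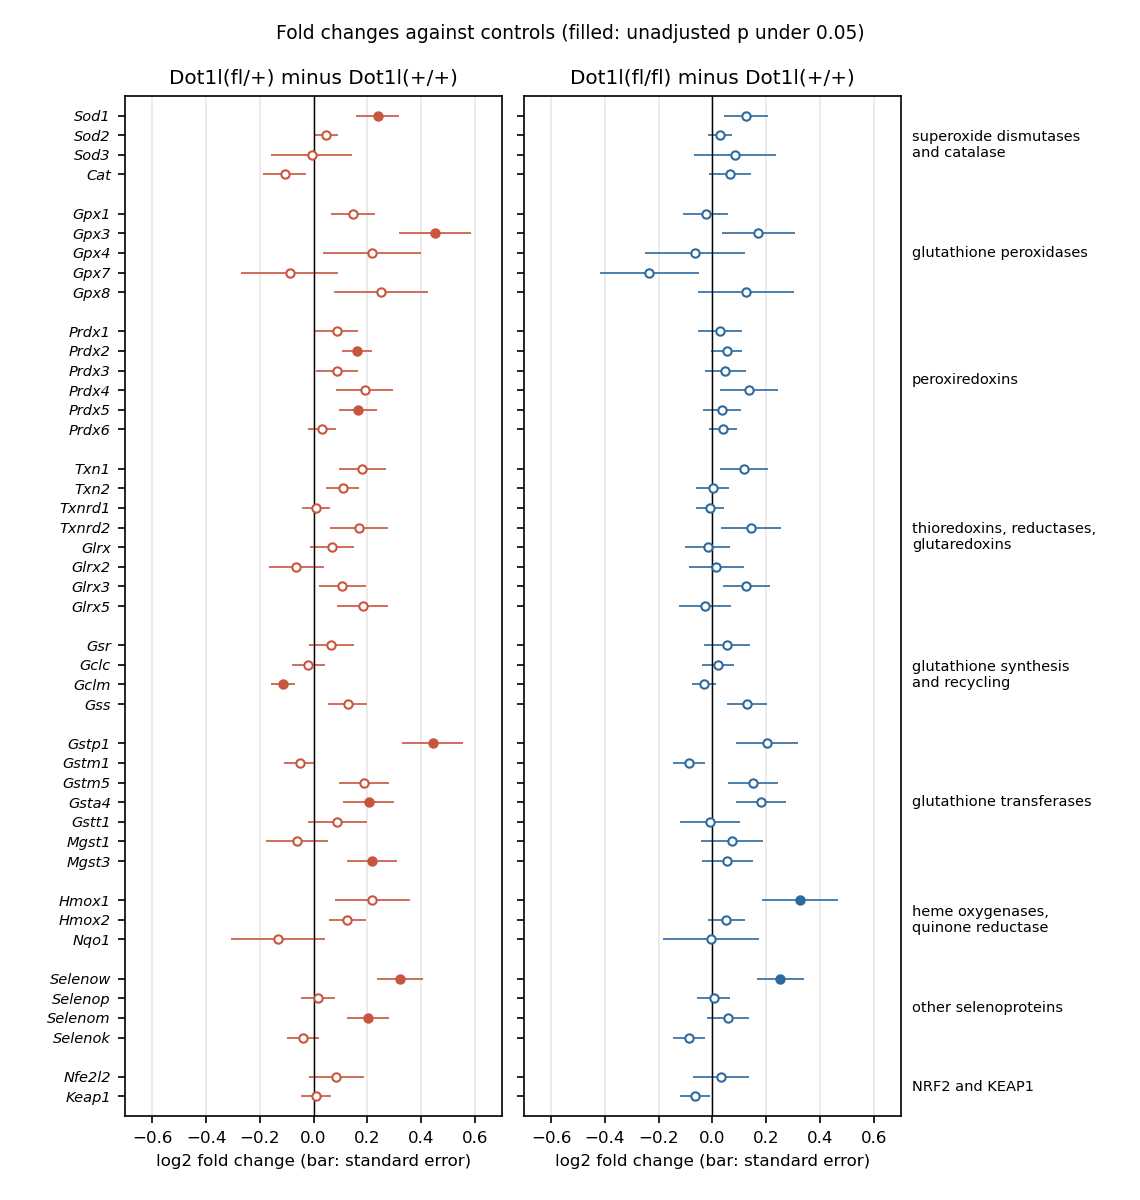
Log2 fold change (points) with its standard error (bars) of each member against the control pools, in Dot1l(fl/+) (left, red) and Dot1l(fl/fl) (right, blue), with filled points where the unadjusted p is under 0.05. There are 10 filled points on the left, 9 of them to the right of 0, and 2 on the right.

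Superoxide dismutases and catalase came first in the chain. Sod1, the cytosolic copper and zinc enzyme (ENSMUSG00000022982, chr16:90220754-90226329, plus strand, GRCm38), was at 36.2, 37.6 and 37.7 CPM in the controls, at 40.0, 45.9 and 45.7 CPM in Dot1l(fl/+) and at 37.9, 45.3 and 38.2 CPM in Dot1l(fl/fl). All pools with a floxed allele lay above all controls, though Dot1l(fl/fl) pools 1 and 3 did so narrowly. The log2 difference of Sod1 was 0.24 ± 0.08 in Dot1l(fl/+) (unadjusted p = 0.0106, adjusted p = 0.541, edgeR) and 0.12 ± 0.08 in Dot1l(fl/fl) (adjusted p = 0.999). Sod1 shares 23.1% of its 50-base windows with the processed pseudogene Gm8566, which was counted at 37.7 to 56.3 CPM, as high as Sod1 itself. Gm8566 was at 37.7, 42.2 and 41.5 CPM in the controls, at 43.5, 55.8 and 53.6 CPM in Dot1l(fl/+) and at 53.4, 56.3 and 40.5 CPM in Dot1l(fl/fl). The 2 rows together were at 73.9, 79.8 and 79.2 CPM in the controls, at 83.5, 101.7 and 99.2 CPM in Dot1l(fl/+) and at 91.3, 101.7 and 78.7 CPM in Dot1l(fl/fl). The summed value was thus above the controls in all 3 Dot1l(fl/+) pools and in 2 of the 3 Dot1l(fl/fl) pools, with no test run on it.

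Cat, the peroxisomal catalase and the highest of this role per exon length, had 62.0, 66.8 and 60.2 CPM in the control pools, against 60.8, 50.4 and 64.3 CPM with 1 floxed allele and 65.8, 66.4 and 65.7 CPM with 2. Dot1l(fl/+) pool 2 was the lowest of the 9, the Dot1l(fl/fl) pools were almost alike, and the floxed groups did not overlap. The difference between Dot1l(fl/fl) and Dot1l(fl/+) was 0.17 ± 0.08 (unadjusted p = 0.0464, adjusted p = 0.763, edgeR) and was 0.08 without Dot1l(fl/+) pool 2. The unadjusted p was above 0.05 when any 1 pool was left out other than Dot1l(fl/+) pools 1 and 3, and was 0.0507 by edgeR with the replicate block, where the difference was 0.18. Mitochondrial Sod2 and extracellular Sod3 differed from the controls by 0.05 ± 0.04 and -0.0069 ± 0.15 with 1 floxed allele and by 0.03 ± 0.04 and 0.08 ± 0.15 with 2, and none of these had an unadjusted p under 0.05.

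Among the glutathione peroxidases, Gpx3, the secreted plasma enzyme (ENSMUSG00000018339, chr11:54902453-54910377, plus strand), had the largest difference. It measured 31.6, 23.3 and 33.0 CPM in the Dot1l(fl/+) pools and 25.3, 24.7 and 22.1 CPM in the Dot1l(fl/fl) pools, where the controls had 17.8, 24.8 and 21.6 CPM. Dot1l(fl/+) pools 1 and 3 were above every control, while pool 2 lay among them. The log2 fold change was 0.45 ± 0.13 in Dot1l(fl/+) (unadjusted p = 0.00491, adjusted p = 0.541, edgeR), 0.17 ± 0.14 in Dot1l(fl/fl) against controls and -0.28 ± 0.13 between the floxed genotypes (unadjusted p = 0.0556, adjusted p = 0.772, edgeR). Choroid plexus markers varied between pools too. All 8 of them were detected in every library, and they summed to between 69.2 and 158.6 CPM in the controls, to 116.9, 184.2 and 596.7 CPM in Dot1l(fl/+) pools 1 to 3, and to between 42.5 and 49.0 CPM in Dot1l(fl/fl). Pool 1 of Dot1l(fl/+) thus lay within the control range. At an unadjusted p under 0.05, 4 of the 8 markers were higher in Dot1l(fl/+) and 3 lower in Dot1l(fl/fl), against 4.30% and 1.72% of all genes. Between the floxed genotypes all 8 were lower (2.87% of all genes). None passed an adjusted p of 0.05 by edgeR in any comparison. The part of these markers in the Gpx3 values was not tested.

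Gpx1, the cytosolic enzyme and the highest peroxidase of this family per exon length, was at 45.6, 42.2 and 41.6 CPM in the controls, at 41.7, 50.2 and 51.2 CPM in Dot1l(fl/+) and at 43.5, 44.4 and 38.8 CPM in Dot1l(fl/fl). Dot1l(fl/+) pools 2 and 3 were above the rest and pool 1 was not, and the log2 fold change was 0.15 ± 0.08 (unadjusted p = 0.102, adjusted p = 0.662, edgeR). Gpx4 (0.22 ± 0.18) and Gpx8 (0.25 ± 0.17), a cysteine enzyme of the endoplasmic reticulum, had positive values with wide errors in Dot1l(fl/+). Gpx7, a related enzyme of the same compartment, was at 2.32, 2.23 and 2.40 CPM in the controls and at 1.96, 2.06 and 1.88 CPM in Dot1l(fl/fl), where all pools lay below the controls, with a difference of -0.23 ± 0.19 (unadjusted p = 0.228, adjusted p = 0.999, edgeR). All 5 peroxidases had negative values between Dot1l(fl/fl) and Dot1l(fl/+), from -0.28 to -0.13, and none had an unadjusted p under 0.05.

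All 6 peroxiredoxins had positive log2 fold changes against the controls in both floxed genotypes, from 0.03 to 0.19 with 1 floxed allele and from 0.03 to 0.14 with 2, in the fit of all 9 libraries. Without Dot1l(fl/+) pool 2, Prdx1 and Prdx3 were at -0.020 and -0.021 in Dot1l(fl/+). The sign in Dot1l(fl/fl) also turned without Dot1l(fl/fl) pool 2 for Prdx1 (-0.017) and Prdx6 (-0.012), without control pool 1 for Prdx1 (-0.0058) and without control pool 3 for Prdx5 (-0.023). Prdx2, a cytosolic thioredoxin-dependent peroxidase that is abundant in neurons (ENSMUSG00000005161, chr8:84969587-84974834, plus strand), had 133.9, 130.2 and 132.9 CPM in the control pools, against 137.3, 156.3 and 150.8 CPM with 1 floxed allele and 138.9, 142.3 and 130.3 CPM with 2. All Dot1l(fl/+) pools were above all controls, and the Dot1l(fl/fl) pools overlapped with them. The difference was 0.16 ± 0.06 in Dot1l(fl/+) (unadjusted p = 0.0119, adjusted p = 0.541, edgeR) and 0.05 ± 0.06 in Dot1l(fl/fl) (adjusted p = 0.999). Prdx2 shares 23.8% of its 50-base windows with 4 other genes, of which Tdpx-ps1 was counted at 17.7 to 22.9 CPM. Exons of Junb and Rnaseh2a on the opposite strand overlap 11.5% of the Prdx2 exon length.

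Prdx5, found in mitochondria, peroxisomes and cytosol and the highest peroxiredoxin per exon length, measured 138.7, 166.5 and 156.6 CPM in the Dot1l(fl/+) pools and 142.8, 144.2 and 134.1 CPM in the Dot1l(fl/fl) pools, where the controls had 145.8, 139.6 and 126.3 CPM. Pools 2 and 3 of Dot1l(fl/+) were above every control and pool 1 was not. Exons of Trmt112 on the opposite strand overlap 19.1% of the Prdx5 exon length. Whether counting used strand is not given in the sources used here. Prdx5 differed by 0.17 ± 0.07 in Dot1l(fl/+) (unadjusted p = 0.0333, adjusted p = 0.568, edgeR), but by 0.11 without its pool 2, by 0.15 without its pool 3 and by 0.11 without control pool 3, each with an unadjusted p above 0.05. Prdx4 of the endoplasmic reticulum (0.19 ± 0.11), mitochondrial Prdx3 (0.09 ± 0.08), cytosolic Prdx1 (0.09 ± 0.08) and Prdx6, the member that uses glutathione (0.03 ± 0.05), had an unadjusted p above 0.05 in Dot1l(fl/+). Prdx1 shares 10.9% of its 50-base windows with 3 other genes, of which Gm21399 was counted at 37.5 to 47.4 CPM.

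The 8 thioredoxins, thioredoxin reductases and glutaredoxins had 0 members at an unadjusted p under 0.05 against controls in either genotype. Txn1, cytosolic thioredoxin and the highest of this role per exon length, was at 25.5, 26.3 and 23.4 CPM in the controls, at 26.0, 30.2 and 29.0 CPM in Dot1l(fl/+) and at 28.3, 28.8 and 24.2 CPM in Dot1l(fl/fl). In each floxed genotype 2 pools lay above all controls and 1 did not. The differences were 0.18 ± 0.09 (unadjusted p = 0.0571, adjusted p = 0.608, edgeR) and 0.12 ± 0.09, and with the replicate block the first had an unadjusted p of 0.0416 (adjusted p = 0.522, edgeR). Glrx5, a mitochondrial glutaredoxin for iron-sulfur clusters, had 25.6, 22.0 and 22.4 CPM in the control pools, against 23.9, 27.7 and 27.9 CPM with 1 floxed allele and 24.7, 23.2 and 20.5 CPM with 2. Dot1l(fl/+) pools 2 and 3 were the highest of the 9 and Dot1l(fl/fl) pool 3 was the lowest, and the floxed groups overlapped. Dot1l(fl/fl) minus Dot1l(fl/+) was -0.21 ± 0.09 (unadjusted p = 0.044, adjusted p = 0.762, edgeR), while neither group had an unadjusted p under 0.05 against controls. That p was above 0.05 without control pool 3, Dot1l(fl/+) pool 2 or 3, or Dot1l(fl/fl) pool 2 or 3, the value lying nearest 0 at -0.15 without the last. The reductases differed from the controls in Dot1l(fl/+) by 0.0091 ± 0.05 for cytosolic Txnrd1 and 0.17 ± 0.11 for mitochondrial Txnrd2. Mitochondrial thioredoxin Txn2 (0.11 ± 0.06), cytosolic Glrx (0.07 ± 0.08), mitochondrial Glrx2 (-0.06 ± 0.10) and Glrx3, which handles iron (0.11 ± 0.09), lay between -0.06 and 0.11. Glrx3 shares 20.4% of its 50-base windows with Gm12669, which was counted at 39.3 to 47.5 CPM.

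Glutathione synthesis held the 1 member that was lower in Dot1l(fl/+). Gclm, the regulatory subunit of glutamate-cysteine ligase (ENSMUSG00000028124, chr3:122245557-122270732, plus strand), measured 96.8, 95.3 and 91.5 CPM in the Dot1l(fl/+) pools and 99.7, 100.8 and 99.4 CPM in the Dot1l(fl/fl) pools, where the controls had 102.5, 101.7 and 102.3 CPM. The control pools were close to each other, and all 6 pools with a floxed allele lay below them. Gclm differed by -0.11 ± 0.04 in Dot1l(fl/+) (unadjusted p = 0.0258, adjusted p = 0.55, edgeR) and -0.03 ± 0.04 in Dot1l(fl/fl) (adjusted p = 0.999). The Dot1l(fl/+) value was -0.038 when a per-gene correction for exon length and GC content was added, and its unadjusted p was above 0.05 without any 1 of the control pools or without Dot1l(fl/+) pool 3, where it was -0.09. Its partner Gclc, the catalytic subunit and the highest of this role per exon length, was at 76.1, 81.5 and 78.6 CPM in the controls, at 80.3, 76.9 and 75.9 CPM in Dot1l(fl/+) and at 86.0, 73.5 and 80.1 CPM in Dot1l(fl/fl). Those ranges overlapped, and the differences were -0.02 ± 0.06 and 0.02 ± 0.06. Gss, glutathione synthetase, was above all controls in all 6 floxed pools, by 0.13 ± 0.07 and 0.13 ± 0.07 (unadjusted p = 0.105 and 0.105, adjusted p = 0.665 and 0.999, edgeR). Exons of Acss2, Gssos1 and Gssos2 on the opposite strand overlap 15.4% of the Gss exon length. Gsr, glutathione reductase, differed by 0.07 ± 0.08 and 0.05 ± 0.08.

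Of the 7 glutathione transferases, Gstp1, Gsta4 and Mgst3 were higher in Dot1l(fl/+) at an unadjusted p under 0.05, against 4.30% of all genes. Their exon lengths were 1548, 1266 and 1097 bases, and of all genes up to 1977 bases 10.6% were higher at that threshold. Gstp1, the pi-class enzyme (ENSMUSG00000060803, chr19:4035407-4037985, minus strand), had 15.5, 16.8 and 15.1 CPM in the control pools, against 21.7, 21.7 and 21.1 CPM with 1 floxed allele and 21.7, 15.2 and 17.7 CPM with 2. The 3 Dot1l(fl/+) pools were alike and well above all controls, whereas in Dot1l(fl/fl) pool 1 matched them and pool 2 lay at the control level. This gave a log2 fold change of 0.44 ± 0.11 in Dot1l(fl/+) (unadjusted p = 0.00169, adjusted p = 0.541, edgeR), 0.20 ± 0.11 in Dot1l(fl/fl) and -0.24 ± 0.11 between the floxed genotypes (unadjusted p = 0.0522, adjusted p = 0.77, edgeR). With the replicate block the last was -0.25 (unadjusted p = 0.0392, adjusted p = 0.699, edgeR). Gstp1 shares 62.3% of its 50-base windows with its neighbour Gstp2, which was counted at no more than 0.192 CPM in any library, so the split between the pair is uncertain but the counted copy is Gstp1.

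Gsta4, which conjugates the lipid peroxidation product hydroxynonenal, measured 47.8, 53.7 and 52.4 CPM in the Dot1l(fl/+) pools and 50.1, 55.6 and 45.4 CPM in the Dot1l(fl/fl) pools, where the controls had 39.7, 50.7 and 43.1 CPM. Control pool 1 was the lowest of the 9, and both floxed genotypes overlapped with the controls. The differences were 0.20 ± 0.09 (unadjusted p = 0.0468, adjusted p = 0.589, edgeR) and 0.18 ± 0.09 (unadjusted p = 0.0764, adjusted p = 0.999, edgeR), and the first was 0.13 without control pool 1. Its unadjusted p was also above 0.05 without control pool 3, Dot1l(fl/+) pool 2 or 3, or Dot1l(fl/fl) pool 1. With the replicate block the Dot1l(fl/fl) difference was 0.18 (unadjusted p = 0.0232, adjusted p = 0.999, edgeR). Mgst3, a microsomal enzyme, was at 41.0, 41.0 and 34.8 CPM in the controls, at 40.0, 51.3 and 44.4 CPM in Dot1l(fl/+) and at 40.4, 42.8 and 38.0 CPM in Dot1l(fl/fl). Only Dot1l(fl/+) pools 2 and 3 and Dot1l(fl/fl) pool 2 exceeded all controls. The Dot1l(fl/+) difference was 0.22 ± 0.09 (unadjusted p = 0.0374, adjusted p = 0.569, edgeR), and was 0.12 without pool 2, 0.23 without pool 3 and 0.14 without control pool 3, each with an unadjusted p above 0.05.

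Gstm5, a mu-class enzyme and the highest transferase per exon length, had 93.2, 97.8 and 83.0 CPM in the control pools, against 100.4, 119.2 and 92.2 CPM with 1 floxed allele and 107.7, 105.2 and 90.6 CPM with 2. The groups overlapped, and the differences were 0.19 ± 0.09 (unadjusted p = 0.0647, adjusted p = 0.611, edgeR) and 0.15 ± 0.09. The first was 0.077 without Dot1l(fl/+) pool 2, 0.12 without control pool 3 and 0.11 with a correction for exon length and GC content. The gene 4933431E20Rik lies on the opposite strand over 13.9% of its exon length, shares 14.4% of its 50-base windows and was lowest, at 122.9 CPM, in Dot1l(fl/+) pool 2, where Gstm5 was highest. The 2 rows together were at 244.7, 254.5 and 244.2 CPM in the controls, at 253.2, 242.1 and 243.6 CPM in Dot1l(fl/+) and at 264.3, 265.6 and 241.2 CPM in Dot1l(fl/fl), so the sum in Dot1l(fl/+) was not above the controls. Blocked by replicate, the differences of Gstm5 were 0.18 (unadjusted p = 0.00962, adjusted p = 0.451, edgeR) and 0.15 (unadjusted p = 0.0299, adjusted p = 0.999, edgeR). Gstm1, of the same class, had the opposite sign at -0.05 ± 0.06 and -0.09 ± 0.06, and shares 33.0% of its 50-base windows with 5 other genes. Theta-class Gstt1 and microsomal Mgst1 differed by 0.09 ± 0.11 and -0.06 ± 0.11 in Dot1l(fl/+).

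**Figure D3:**
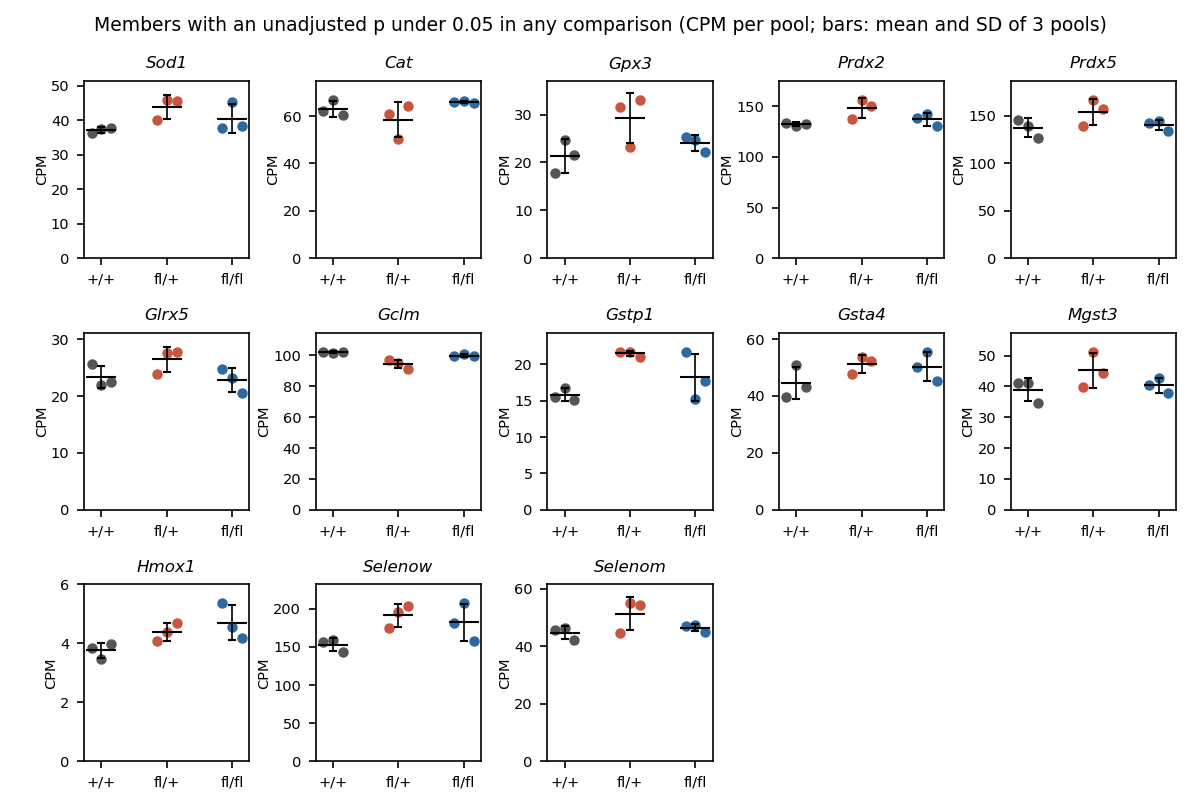
CPM in each pool (points) with the mean and SD of 3 pools (bars) for the 13 members with an unadjusted p under 0.05 in any of the 3 comparisons. The Dot1l(fl/+) points lie clear of the controls for Sod1, Prdx2, Gclm, Gstp1, Hmox1 and Selenow and overlap with them in the other 7 panels.

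Heme oxygenases open the heme ring, and Hmox1 is their inducible form (ENSMUSG00000005413, chr8:75093621-75100589, plus strand). It measured 4.07, 4.38 and 4.69 CPM in the Dot1l(fl/+) pools and 5.36, 4.55 and 4.19 CPM in the Dot1l(fl/fl) pools, where the controls had 3.83, 3.48 and 3.98 CPM. All 6 floxed pools were above all controls, at low levels, and Dot1l(fl/fl) pool 1 was the highest. Hmox1 differed by 0.33 ± 0.14 in Dot1l(fl/fl) (unadjusted p = 0.0382, adjusted p = 0.999, edgeR) and 0.22 ± 0.14 in Dot1l(fl/+) (unadjusted p = 0.142, adjusted p = 0.7, edgeR). In Dot1l(fl/fl) the value was 0.22 without pool 1, 0.36 without pool 2, 0.34 without control pool 1 and 0.28 without control pool 2, each with an unadjusted p above 0.05, and with the replicate block it was 0.33 (unadjusted p = 0.0561, edgeR). Microglial markers, 10 genes all detected in every library, summed to between 377 and 394 CPM in the controls, to between 377 and 454 CPM in Dot1l(fl/+) and to between 411 and 447 CPM in Dot1l(fl/fl), and their part in the Hmox1 values was not tested.

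Hmox2, the constitutive form and the higher of the pair, was at 64.6, 65.1 and 62.1 CPM in the controls, at 66.3, 74.7 and 68.1 CPM in Dot1l(fl/+) and at 69.5, 69.2 and 59.6 CPM in Dot1l(fl/fl). Every Dot1l(fl/+) pool was above the controls and Dot1l(fl/fl) pool 3 was below them, with differences of 0.13 ± 0.07 (unadjusted p = 0.0883, adjusted p = 0.639, edgeR) and 0.05 ± 0.07. Its exons overlap those of Cdip1 on the opposite strand over 40.2% of their length. The library kit keeps strand, but whether the counting used it is not given in the sources used here, and Cdip1 was at 224.0, 224.4 and 229.4 CPM in the controls, at 240.2, 247.2 and 237.4 CPM in Dot1l(fl/+) and at 226.2, 242.2 and 223.9 CPM in Dot1l(fl/fl). Like Hmox2, Cdip1 was above all controls in every Dot1l(fl/+) pool, and its part in the Hmox2 values was not tested. The quinone reductase Nqo1 was at 3.88 to 5.63 CPM in the 9 pools, and its differences were -0.13 ± 0.18 and -0.0052 ± 0.18.

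Selenow, a small redox protein of muscle and brain (ENSMUSG00000041571, chr7:15917208-15922402, minus strand), was the 1 member with an unadjusted p under 0.05 in both floxed genotypes against the controls in the fit of all 9 libraries by genotype alone, and Gsta4 and Gstm5 joined it with the replicate block. It had 156.2, 159.5 and 143.5 CPM in the control pools, against 175.0, 195.3 and 203.5 CPM with 1 floxed allele and 181.1, 207.2 and 157.9 CPM with 2. All Dot1l(fl/+) pools were above all controls, as were Dot1l(fl/fl) pools 1 and 2, while Dot1l(fl/fl) pool 3 lay among the controls. The log2 fold change was 0.32 ± 0.09 in Dot1l(fl/+) (unadjusted p = 0.00236, adjusted p = 0.541, edgeR) and 0.25 ± 0.09 in Dot1l(fl/fl) (unadjusted p = 0.0115, adjusted p = 0.999, edgeR). The second value was 0.15 without Dot1l(fl/fl) pool 2 and 0.21 without control pool 3, both with an unadjusted p above 0.05. With a per-gene correction for exon length and GC content, Selenow, which has a short transcript, differed by 0.19 with 1 floxed allele and 0.21 with 2 (unadjusted p = 0.0107 and 0.00680, adjusted p = 0.705 and 1.000, edgeR). With no filter on low counts, where 28316 genes were tested, edgeR called 3 members in Dot1l(fl/+), Selenow, Gpx3 and Gstp1, and Selenow in Dot1l(fl/fl), where 0.886% and 0.417% of all genes were called. None of the 50-base windows of Selenow is found in another gene.

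Selenom, a selenoprotein of the endoplasmic reticulum, measured 44.8, 55.0 and 54.4 CPM in the Dot1l(fl/+) pools and 47.1, 47.4 and 45.0 CPM in the Dot1l(fl/fl) pools, where the controls had 45.7, 46.3 and 42.2 CPM. Dot1l(fl/+) pools 2 and 3 stood above the other 7 pools and pool 1 did not. Its difference was 0.20 ± 0.08 in Dot1l(fl/+) (unadjusted p = 0.0221, adjusted p = 0.541, edgeR) and 0.06 ± 0.08 in Dot1l(fl/fl). The first was 0.15 without Dot1l(fl/+) pool 2, 0.16 without pool 3 and 0.16 without control pool 3, each with an unadjusted p above 0.05. Selenop differed by 0.02 ± 0.06 and 0.0051 ± 0.06, and Selenok, another protein of the endoplasmic reticulum, by -0.04 ± 0.06 and -0.09 ± 0.06. Over the 9 members with a selenocysteine codon, 8 had positive values in Dot1l(fl/+) in the fit of all 9 libraries and 6 without its pool 2, with a median of 0.17 beside -0.0034 over all genes, and 3 of them (Gpx3, Selenow and Selenom) were higher at an unadjusted p under 0.05, against 4.30% of all genes. Between Dot1l(fl/fl) and Dot1l(fl/+) all 9 were below 0 in the fit of all 9 libraries, with a median of -0.069 beside 0.0015 over all genes, and none had an unadjusted p under 0.05. For 4 of them the sign turned when 1 library was left out: Selenow (0.020) and Selenop (0.016) without Dot1l(fl/fl) pool 3, Selenop (0.048) without Dot1l(fl/+) pool 2, Txnrd1 (0.020) without Dot1l(fl/fl) pool 1, and Txnrd2 (0.018 and 0.0010) without Dot1l(fl/+) pool 1 or Dot1l(fl/fl) pool 2. Selenow was also at 0.016 with the correction for exon length and GC content.

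The regulators of the response differed little. Nfe2l2, which encodes NRF2, was at 20.0, 20.4 and 22.3 CPM in the controls, at 20.2, 25.9 and 20.3 CPM in Dot1l(fl/+) and at 22.5, 21.4 and 20.1 CPM in Dot1l(fl/fl). Dot1l(fl/+) pool 2 stood above the other 8 pools, which lay close together. The differences were 0.08 ± 0.10 with 1 floxed allele, and -0.046 without Dot1l(fl/+) pool 2, and 0.03 ± 0.10 with 2. Keap1, which holds NRF2 for degradation and was the higher of the pair per exon length, was at 67.8, 62.6 and 65.0 CPM in the controls, at 61.7, 66.0 and 68.9 CPM in Dot1l(fl/+) and at 62.5, 61.8 and 62.5 CPM in Dot1l(fl/fl). The Dot1l(fl/fl) pools lay just below all controls, by -0.06 ± 0.06 (unadjusted p = 0.274, adjusted p = 0.999, edgeR), and Dot1l(fl/+) differed by 0.0097 ± 0.06.

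Promoters were searched for the core of the antioxidant response element, TGACNNNGC, on both strands, in RefSeq windows of GRCm38.p6 that run from 250 bases before to 50 bases after a start. A window was given for 37 members, 52 windows in all, and 8 members (15.4% of the windows) had a match, against 12.4% of all 32851 windows. None was given for Gclc, Gsr, Gsta4, Hmox1, Prdx6 and Sod3, so these were not searched. The 2 members below had both a match and an unadjusted p under 0.05 in Dot1l(fl/+), with the matched bases in capitals and 10 bases on each side, read along the gene, and in both the core lies on the opposite strand.
Sod1 (chr16:90220696-90220724, plus strand): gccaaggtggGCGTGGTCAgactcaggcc
Gclm (chr3:122245413-122245441, plus strand): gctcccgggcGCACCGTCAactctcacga
The match begins 56 bases before the start in Sod1, which was higher in Dot1l(fl/+), and 134 bases before it in Gclm, which was lower. The other 6 members with a match were Gstm5, Mgst1, Nfe2l2, Prdx1, Selenok and Txnrd1. Of these, Gstm5 was higher in Dot1l(fl/+) with the replicate block (unadjusted p = 0.00962, adjusted p = 0.451, edgeR). A match is a run of letters and not a site shown to be bound.

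The spread between Dot1l(fl/+) pools was wide for the set as a whole. The median over the 43 members of the log2 CPM minus the control mean was 0.018, 0.20 and 0.091 in Dot1l(fl/+) pools 1, 2 and 3, and 24, 38 and 34 members were above the control mean there. In Dot1l(fl/fl) it was 0.049, 0.088 and -0.00089, and in the control pools themselves it ran from -0.038 to 0.044. Dot1l(fl/+) pool 2, highest in this measure, also had the lowest Dot1l level and differed most from the other pools of its genotype. Whether these are linked was not tested. Leaving out Dot1l(fl/+) pool 2 left 5 members higher at an unadjusted p under 0.05 in Dot1l(fl/+), against 4.71% of all genes, and these were Sod1, Gpx3, Prdx2, Gstp1 and Selenow. Without Dot1l(fl/+) pool 1 there were 14 members, against 6.28% of all genes. The same 5 members had an unadjusted p under 0.05 in Dot1l(fl/+) under every one of the 18 alternatives run, left-out libraries included, although the difference of Selenow went from 0.32 to 0.19 with the correction for exon length and GC content. Of the 33 members above 0 in Dot1l(fl/+), 5 (Prdx1, Prdx3, Selenop, Txnrd1 and Nfe2l2) were below 0 without pool 2.

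**Figure D4:**
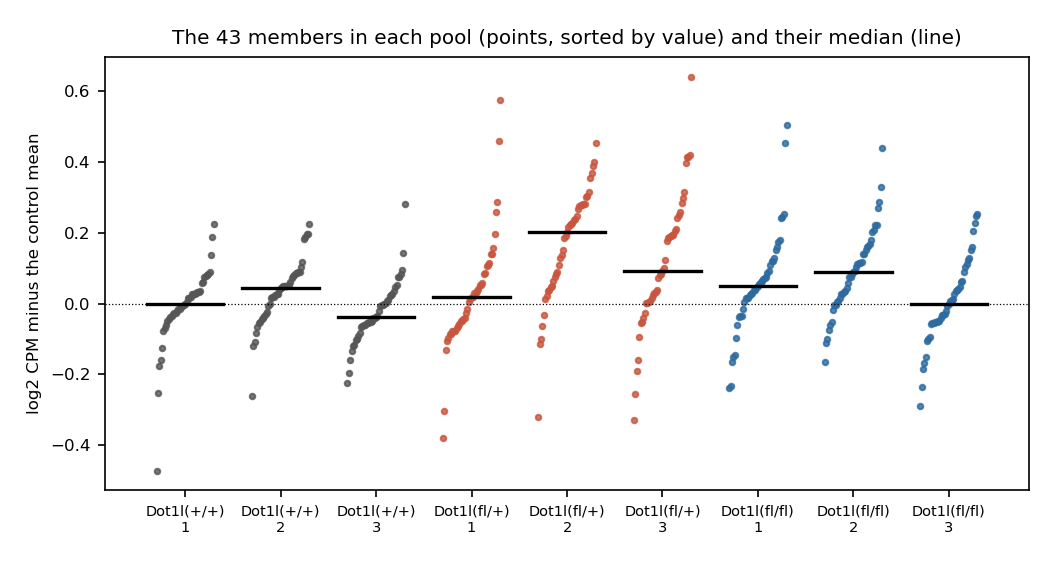
Log2 CPM of each of the 43 members minus its mean over the control pools (points, sorted within a pool) and the median over the members (black line) in the 9 pools. The line lies highest in Dot1l(fl/+) pool 2, at 0.20, while Dot1l(fl/+) pool 1 and Dot1l(fl/fl) pool 3 sit close to 0.

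By median the members had a shorter exon length than all genes tested, and fold changes varied with exon length over all genes. The median exon length was 2217 bases for the members and 3972.5 bases for all genes tested. Both the classes and the correction below used the length covered by all annotated exons of a gene. It was 3970 bases for Sod1 and 10008 for Sod2, beside 641 and 5861 for the transcript with the longest coding sequence. The correction was thus not one for the length of a single transcript. Across 5 classes of exon length with equal numbers of genes, the median log2 fold change of all genes in Dot1l(fl/+) went from 0.079 in the shortest to -0.044 in the longest, and the share higher at an unadjusted p under 0.05 from 10.6% to 0.993%. In the shortest class, up to 1977 bases, 6 of 18 members (33.3%) were higher at that threshold, with a median of 0.19. The 2 longest classes held 5 and 3 members, with 0 higher, against 1.79% and 0.993% of all genes. With a per-gene correction for exon length and GC content, 6 members were higher in Dot1l(fl/+), against 4.56% of all genes, and the median was 0.11. These were Sod1, Prdx2, Gpx3, Gstp1, Selenow and Sod2, of which Sod2 (0.13, unadjusted p = 0.0118, adjusted p = 0.705, edgeR) had no unadjusted p under 0.05 without the correction. Prdx5, Gsta4, Mgst3 and Selenom, which were higher, and Gclm, which was lower, no longer had one with it, and Gstm1 was lower with it (-0.13, unadjusted p = 0.0367, adjusted p = 0.705, edgeR). In Dot1l(fl/fl) the class medians ran from 0.034 to -0.020. What set the relation to length was not tested.

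**Figure D5:**
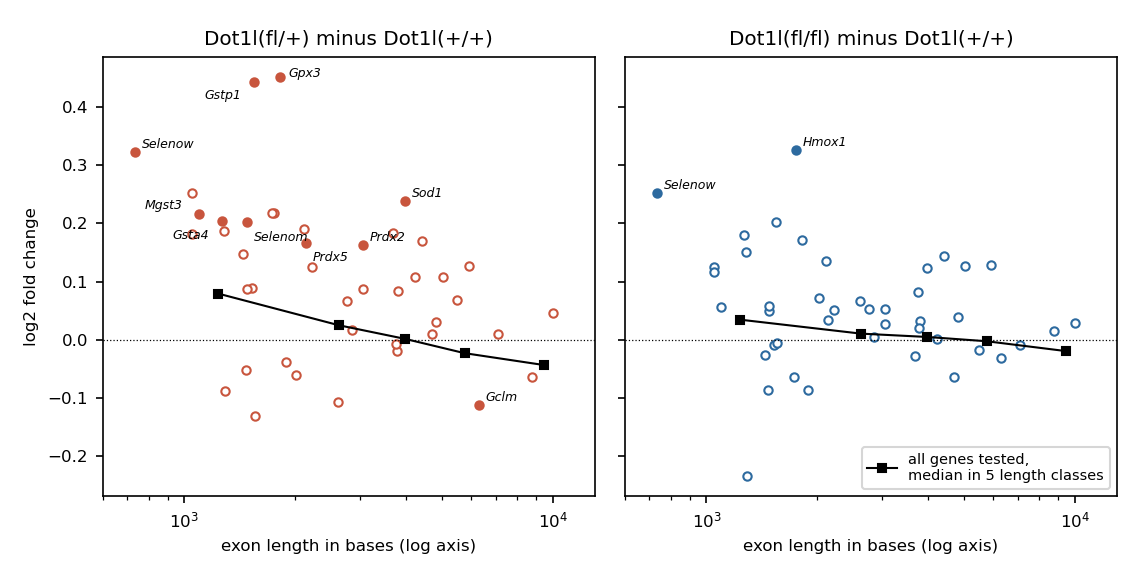
Log2 fold change of the members against exon length in bases (log axis) in Dot1l(fl/+) (left) and Dot1l(fl/fl) (right), filled and named where the unadjusted p is under 0.05, with the median of all genes tested in 5 length classes (black squares). The black line falls from 0.079 to -0.044 on the left and from 0.034 to -0.020 on the right, and most members with a filled point lie above it, apart from Gclm.

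Other genes of the same pathways were read from a companion list of 94 genes, of which 86 were tested. In Dot1l(fl/+), 3 were higher and 4 lower at an unadjusted p under 0.05, against 4.30% and 4.09% of all genes, shares that are close to those of the list. Their median was 0.011, and none passed an adjusted p of 0.05 by edgeR. By group, this was 1 higher of 16 thioredoxin and peroxiredoxin helpers, 2 lower of 23 genes of glutathione supply and use, 0 of 9 genes of NADPH supply, 1 higher and 2 lower of 20 further selenoproteins and selenocysteine synthesis genes, and 1 higher of 18 NRF2 partners, relatives and iron storage genes. In Dot1l(fl/fl) 1 was higher and none lower, against 2.21% and 1.72% of all genes, and between the floxed genotypes 3 were higher and 3 lower, against 3.60% and 2.87%. Ftl1, the ferritin light chain and an NRF2 target, was at 2.13, 3.18 and 1.47 CPM in the controls, at 3.25, 2.90 and 3.78 CPM in Dot1l(fl/+) and at 4.32, 5.10 and 3.34 CPM in Dot1l(fl/fl). All Dot1l(fl/fl) pools were above all controls, and the log2 fold change was 0.94 ± 0.25 (unadjusted p = 0.00211, adjusted p = 0.999, edgeR). Of its 50-base windows 90.6% are found in other genes, Ftl1-ps1 first, so this small count is uncertain.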

How the data were processed

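RNA from 9 pools of dissected midbrain was sequenced with a strand-keeping kit, and the authors deposited raw counts per Ensembl gene for each library. The submitters' processing notes name bcl2fastq 2.17, Trimmomatic 0.30, DESeq2 1.10.1 and GRCm38.p4. Which aligner, counter and gene annotation were used is not given in the sources used here. Deposited tables of the authors' own comparisons (DESeq2 mean, fold change, standard error, p-value and adjusted p) were not used.

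Identifiers were matched to GENCODE M21, which held 47310 of 47729 and 99.9% of counts. Genes passing filterByExpr (17671) were fitted for all 9 libraries together with edgeR 4.0.16 (limma 3.58.1, R 4.3.3), with TMM scaling, genotype as the only factor, quasi-likelihood tests and Benjamini-Hochberg adjustment over all genes tested. The biological coefficient of variation was 8.81%. Alternatives were DESeq2 1.42.0, DESeq2 size factors, other filters, the 2 genotypes alone, a replicate block, a spline offset for exon length and GC content, and leaving out each library. Per the study's methods, each litter gave 1 set of the 3 genotypes to the pools, and pools of the same number were taken as matched for the replicate block, although no source says that the number marks the set. Their deviations from the genotype means correlated at 0.022 to 0.317, against -0.267 to 0.108 for pools of different numbers. The pairs of number 3, all under 0.1, lay within that second range. Deviations within a genotype sum to 0 for each gene, so the 2 ranges are not independent of each other. The fitting code was tested on simulated data with known changes. Python 3.11.15 made the tables (pandas 2.3.3, numpy 2.4.6), and matplotlib 3.10.9 drew the plots.

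The members and all gene lists were chosen with earlier results of these data known. Every member is named by role. Values per library and statistics are given for members with an unadjusted p under 0.05 in any comparison and for the member highest per exon length in each role, with a few others that did not overlap between groups chosen after their values were seen. Companion genes are given as counts, with values at an unadjusted p under 0.01. Copies were found as shared runs of 50 bases between transcripts.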

Additional observations from a re-analysis of the deposited data

How the results depend on the processing

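At an adjusted p of 0.05 the count of members in Dot1l(fl/+) was 3 without a filter on low counts and 2 by DESeq2 on the 2 genotypes alone, and in Dot1l(fl/fl) it was 1 without the filter. It stayed 0 (lowest 0, highest 0) in all 3 comparisons when any 1 library was left out. The 1 member lower in Dot1l(fl/+) became 0 without the filter and, on the 2 genotypes alone, by edgeR and by DESeq2. Members higher in Dot1l(fl/fl) became 1 by DESeq2, on all 9 libraries or on the 2 genotypes. Between the floxed genotypes, members higher became 0 under the replicate block and on the 2 genotypes alone by either tool, and members lower became 7 without the filter (3.23% of all genes), 3 with 10 counts in every library (3.18%), 2 under the replicate block (3.19%), 2 by edgeR on the 2 genotypes (2.44%) and 3 by DESeq2 on all 9 libraries (1.56%). The cause was not tested.

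Leaving out 1 library moved the members higher in Dot1l(fl/+) between 5 (without its pool 2, 4.71% of all genes) and 14 (without its pool 1, 6.28%). Those lower moved between 0 and 1, with a median of 0.063 to 0.149. In Dot1l(fl/fl) the members higher ran from 1 to 4, and 0 were lower, with a median of 0.023 to 0.071. Between the floxed genotypes 0 to 1 were higher and 0 to 7 lower, the 7 without Dot1l(fl/+) pool 1 (4.32% of all genes). In the fit of all 9 libraries, 4.09% of all genes were lower in Dot1l(fl/+). The shares higher and lower there were 2.21% and 1.72% in Dot1l(fl/fl), and 3.60% and 2.87% between the floxed genotypes. Of the 252 alternative values for members with an unadjusted p under 0.05, 193 kept it, 59 did not and 0 changed sign. With the replicate block, Dot1l(fl/+) had 11 members higher and 1 lower, and Dot1l(fl/fl) had 3 higher, with Hmox1 and, between the floxed genotypes, Cat no longer at an unadjusted p under 0.05, and Txn1, Gstm5, Gsta4 and Gstp1 newly so in the comparisons named above. It changed no other member's call.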
